A study of Mus musculus with 6 samples.

Results

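The genes described here are 37 genes of DNA replication and mitosis, measured in mouse embryonic stem cells in which the arginine methyltransferase Prmt6 was targeted by RNA interference. The members were chosen with earlier results of these arrays known. Their probes were chosen by name: every array probe named for a member, or for a synonym such as CDC2A for Cdk1, was taken. Probes were found for 36 of the 37 members, among 20497 genes named on the array, and 31 members passed the detection filter, among 6539 genes tested. The 37 genes comprise 14 replication genes (9 for licensing of origins and 5 for the fork and its nucleotides), 16 mitosis genes (6 for mitotic entry and 10 for the spindle and chromosomes) and 7 cyclins and regulators.

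All cells were CCE, an established mouse embryonic stem cell line, kept feeder-free, with fetal serum and the cytokine LIF (leukemia inhibitory factor) in the medium. A plasmid expressing a short hairpin RNA (shRNA) was transfected, and puromycin at 1.5 µg/ml was applied for 4 days, starting 18 h after transfection. The 3 groups expressed Prmt6 shRNA1, Prmt6 shRNA2 or, as the control, a hairpin against GFP, with 2 arrays each. The knockdown was transient and the cells were a selected pool, not a clone. The labels do not say whether replicates were separate cultures, so p-values measure only the spread between these samples. Each level below is a normalized log2 intensity of 1 probe on an Illumina bead array, and each difference is in log2 units.

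A cell copies its DNA once per cycle. In G1, Cdc6 and Cdt1 load the ring of MCM proteins onto origins, geminin blocks Cdt1 after the start of S phase, and enzymes such as ribonucleotide reductase supply the nucleotides. Entry into mitosis follows from cyclin B with Cdk1 and from the Aurora and Polo kinases, and the spindle checkpoint holds the cell until chromosomes are attached. Genes of the first kind are known to peak at the G1/S boundary under E2F factors. Genes of the other kind peak in G2 and M, through promoter elements called the CHR (cell cycle genes homology region) and the CCAAT box. Mouse embryonic stem cells are known for a short G1 phase, so many of their cells are in S, G2 or M at any time.

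The promoters of 4 members are printed because the replication and mitosis classes compared here differ in these elements. Each line gives the 200 bases before the first listed transcription start in RefSeq (GRCm38.p6), 5′ to 3′ on the strand of the gene. Capitals mark the E2F words (TTCCCGC or TTCGCGC or TTGCCGC or TTGGCGC) and the CHR words (TTTGAA or TTCGAA) on either strand. Mcm5 and Mcm6 encode parts of the replicative helicase, Cdk1 the mitotic kinase and Top2a the topoisomerase that untangles sister chromatids.
Mcm5, chr8:75109309-75109508, plus strand: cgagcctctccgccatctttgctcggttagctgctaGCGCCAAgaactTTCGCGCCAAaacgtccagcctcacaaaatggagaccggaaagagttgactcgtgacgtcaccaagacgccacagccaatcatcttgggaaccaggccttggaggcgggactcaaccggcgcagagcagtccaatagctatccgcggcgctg
Mcm6, chr1:128359706-128359905, minus strand: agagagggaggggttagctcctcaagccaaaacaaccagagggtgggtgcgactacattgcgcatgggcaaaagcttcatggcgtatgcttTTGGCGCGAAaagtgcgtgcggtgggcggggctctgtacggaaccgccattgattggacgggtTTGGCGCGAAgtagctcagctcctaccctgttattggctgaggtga
Cdk1, chr10:69352913-69353112, minus strand: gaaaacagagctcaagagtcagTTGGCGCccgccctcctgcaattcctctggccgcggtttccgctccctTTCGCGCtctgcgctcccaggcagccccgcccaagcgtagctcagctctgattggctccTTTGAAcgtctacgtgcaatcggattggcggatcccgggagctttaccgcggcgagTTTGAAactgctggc
Top2a, chr11:99024190-99024389, minus strand: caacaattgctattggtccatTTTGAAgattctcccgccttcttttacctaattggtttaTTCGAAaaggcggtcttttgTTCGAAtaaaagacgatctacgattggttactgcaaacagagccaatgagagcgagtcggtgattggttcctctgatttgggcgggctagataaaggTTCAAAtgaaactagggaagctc

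The Mcm5 and Mcm6 stretches held E2F words and no CHR word, the Top2a stretch held CHR words and no E2F word, and the Cdk1 stretch held both kinds. In the window from 250 bases before to 50 after the start, an E2F word stood in 8 of the 12 replication promoters in the table (66.7%) and in 2 of the 14 mitosis promoters (14.3%), against 9.69% of all 27025 promoters. A CHR word stood in 2 of the 12 replication promoters (16.7%) and in 10 of the 14 mitosis promoters (71.4%), against 19.4% of all. The CCAAT box stood in 8 of 12 (66.7%) and 12 of 14 (85.7%), against 37.9% of all. Both strands were searched. The words can share bases: TTCGCGC and TTGGCGC overlap in Mcm5 and Mcm6, TTGGCGC read on the other strand ends in CCAA, and TTCGAA reads the same on both strands. A match of letters is a description and not a binding site. Among the 7 cyclins and regulators, 4 promoters were in the table, of which 1 (that of Mki67) held an E2F word and a CHR word. The members without an entry were Mcm4, Gmnn, Cdc25c, Aurkb, Ccna2, Foxm1 and Ccnd1.

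Detected probes ranged from 5782 to 10928 per array, and with 2 arrays in a group precision is limited throughout. Prmt6 itself stood at 6.35 and 7.27 with Prmt6 shRNA1 and at 6.52 and 5.54 with Prmt6 shRNA2, against 8.37 and 8.16 with GFP shRNA. It was at least 1.52-fold lower with both hairpins together (limma adjusted p = 0.082, over all genes), so the targeted gene had the labelled direction but did not pass the test. Among the alternatives that kept all 6 arrays, it passed with median centring (limma adjusted p = 0.0135) and with array weights (0.0497). It did not pass with no background correction (0.132), the authors' processed values (0.0769) or no filter (0.267). Nor did it with its probes averaged (0.0611) or with the replicate number as a block (0.228). Markers of embryonic stem cells were present: 7 of 10 passed the filter (not Dppa5a, Tdgf1 and Fgf4), with a summed linear level of 15087 to 17907 on the 4 Prmt6 shRNA arrays, against 21289 to 26984 on the GFP shRNA arrays. Of 10 trophectoderm markers, 7 were measured (not Eomes, Elf5 and Hand1), with a sum of 5689 to 20162 on the Prmt6 shRNA arrays, against 2559 to 2749. Of 10 endoderm markers, 6 were measured (not Sox7, Foxa2, Lama1 and Lamb1), with a sum of 17380 to 26466, against 9986 to 11274. Of 10 fibroblast markers, 2 were measured (not Col1a1, Col1a2, Col3a1, Thy1, Dcn, Lum, Pdgfrb and Fbln2), with a sum of 1444 to 3561, against 313 to 605. The sums differed between the hairpins. Trophectoderm markers had 17821 to 20162 with Prmt6 shRNA1 and 5689 to 6018 with Prmt6 shRNA2. In the same order, endoderm markers had 17380 to 19584 and 24560 to 26466, and fibroblast markers 3320 to 3561 and 1444 to 1451. Embryonic stem cell markers had 17394 to 17907 and 15087 to 16123. With both hairpins against GFP shRNA, 5 trophectoderm, 2 endoderm and 1 fibroblast marker were called higher by limma (1.67% of all genes called). No embryonic stem cell marker was called. Between the hairpins, 3 trophectoderm markers were called lower with Prmt6 shRNA2 and no other marker was called (0.398% of all genes). The part of marker levels in the results on cell cycle genes was not tested. In such bulk samples, fewer cells of a type and less RNA per cell cannot be told apart.

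Transcripts of the replication and mitosis genes lay lower in cells with Prmt6 hairpins than in control cells, by small amounts, and no single member passed the test over all genes. Since the members were chosen with earlier results of these arrays known, the shares below are descriptions only. With the average of both Prmt6 hairpins minus GFP shRNA, 30 of the 31 tested members had a log2 difference below 0 (96.8%), against 46.7% of all genes tested. The exception was Foxm1. The median difference was -0.39 over the members and 0.02 over all genes. No member was called at an adjusted p under 0.05, where 1.67% of all genes were called, 0.168% as lower. At an unadjusted p under 0.05, 13 of 31 members were lower (41.9%), against 3.87% of all genes. That count dropped to 0 when GFP shRNA replicate 1 was left out and to 7 when the other control array was. For 16 members (51.6%), all 4 Prmt6 shRNA arrays lay below both GFP shRNA arrays, against 8.79% of all genes. Of the 31 members, 26 were detected on all 6 arrays, and each of the other 5 on at least 1 Prmt6 shRNA array. With no filter, 34 of 36 members lay below 0.

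The calls differed with the detection filter. When only genes detected on all 6 arrays were tested, 26 members remained, and 6 were called lower with both hairpins: Bub1b (adjusted p = 0.0138), Ccnb1 (0.0152), Top2a (0.0224), Aurka (0.036), Aurkb (0.0409) and Ccne1 (0.0467), all from limma. In that test 1.44% of 4099 genes were called lower. These 6 are 5 mitosis genes and 1 cyclin, and no replication gene was among them.

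**Figure D1:**
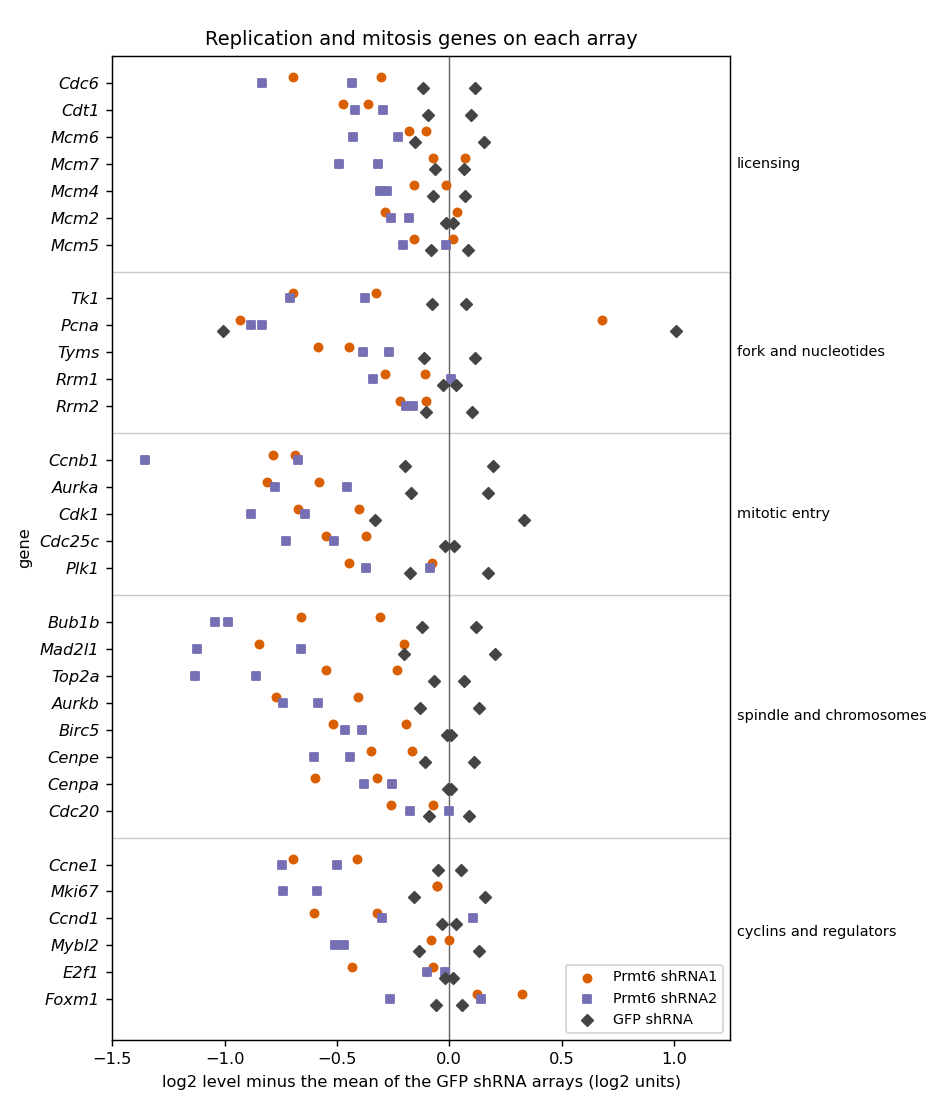
Levels of the 31 tested members on each array, as log2 level minus the mean of the GFP shRNA arrays, grouped by role (rows) and ordered by difference within each role. Circles are Prmt6 shRNA1 arrays, squares Prmt6 shRNA2 arrays and diamonds GFP shRNA arrays. Most mitosis genes lie left of the control arrays, the Prmt6 shRNA1 arrays of the MCM genes lie among them or near them, and Pcna has 1 high and 1 low array both with Prmt6 shRNA1 and with GFP shRNA.

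Among the licensing genes, the loading factors Cdc6 and Cdt1 had larger differences than the MCM subunits on the brightest probe of each gene. A dimmer Mcm7 probe, detected on all 6 arrays, lay at -0.47 ± 0.23, further below control than Cdt1. Cdc6 stood at 7.70 and 8.09 with Prmt6 shRNA1 and at 7.96 and 7.56 with Prmt6 shRNA2, against 8.51 and 8.28 with GFP shRNA. Cdt1 stood at 10.61 and 10.72 with Prmt6 shRNA1 and at 10.78 and 10.66 with Prmt6 shRNA2, against 11.18 and 10.98 with GFP shRNA. For both genes every Prmt6 shRNA array lay below both control arrays. The difference was -0.57 ± 0.21 for Cdc6 (limma SE; adjusted p = 0.289) and -0.39 ± 0.15 for Cdt1 (adjusted p = 0.328). Cdc6 was near the detection limit, detected on 1 array of each Prmt6 hairpin and on both control arrays.

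The MCM subunits, which form the ring that unwinds DNA, had small differences on their brightest probes that did not pass the test. Mcm6 stood at 9.78 and 9.70 with Prmt6 shRNA1 and at 9.45 and 9.65 with Prmt6 shRNA2, against 10.04 and 9.73 with GFP shRNA. Mcm5 stood at 12.12 and 11.94 with Prmt6 shRNA1 and at 11.89 and 12.09 with Prmt6 shRNA2, against 12.18 and 12.02 with GFP shRNA. Over the 4 Prmt6 shRNA arrays together, the groups overlapped for all 5 tested subunits. With Prmt6 shRNA2 alone, both arrays lay below both control arrays for Mcm2, Mcm4, Mcm6 and Mcm7, with differences of -0.22 to -0.40 that did not pass the test. The difference was -0.24 ± 0.17 for Mcm6 and -0.09 ± 0.16 for Mcm5, with a 95% interval of -0.48 to 0.30 for Mcm5. Mcm7, Mcm4 and Mcm2 had -0.20 ± 0.15, -0.19 ± 0.15 and -0.17 ± 0.16, and the adjusted p of the 5 subunits lay between 0.589 and 0.842.

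Of the genes for the fork and its nucleotides, both thymidine enzymes lay below control on every Prmt6 shRNA array. Tk1, the thymidine kinase of the salvage pathway, stood at 8.72 and 8.35 with Prmt6 shRNA1 and at 8.34 and 8.67 with Prmt6 shRNA2, against 8.97 and 9.12 with GFP shRNA. Tyms, the thymidylate synthase, stood at 10.27 and 10.14 with Prmt6 shRNA1 and at 10.34 and 10.45 with Prmt6 shRNA2, against 10.83 and 10.61 with GFP shRNA. Neither gene's Prmt6 shRNA arrays overlapped the control arrays. The difference was -0.53 ± 0.19 for Tk1, or 1.44-fold (adjusted p = 0.288), and -0.42 ± 0.16 for Tyms, or 1.34-fold (adjusted p = 0.294).

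Neither subunit of ribonucleotide reductase passed the test. Rrm2, the regulated subunit, stood at 9.28 and 9.39 with Prmt6 shRNA1 and at 9.33 and 9.31 with Prmt6 shRNA2, against 9.60 and 9.39 with GFP shRNA. The lower control array lay just above the highest Prmt6 shRNA array. For Rrm2 the difference of its brightest probe was -0.17 ± 0.15 (adjusted p = 0.662), but -0.44 with its probes averaged and -0.068 without GFP shRNA replicate 1. The average includes a dimmer Rrm2 probe that was detected on no Prmt6 shRNA2 array. For Rrm1, the large subunit, the difference was -0.18 ± 0.17 (adjusted p = 0.684). Pcna, the sliding clamp of the polymerase, gave no usable comparison with its single probe. It stood at 6.05 and 7.66 with Prmt6 shRNA1 and at 6.15 and 6.10 with Prmt6 shRNA2, against 7.99 and 5.97 with GFP shRNA. It was detected on 1 Prmt6 shRNA1 array, no Prmt6 shRNA2 array and 1 GFP shRNA array. No fold is given, since its lower limit is under 1, and it did not pass the test (adjusted p = 0.786).

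The mitotic entry genes had the lowest median of the 5 role groups, at -0.65 over 5 tested members. Ccnb1, cyclin B1, the partner of Cdk1, had the lowest value of all members. It stood at 10.12 and 10.21 with Prmt6 shRNA1 and at 10.23 and 9.55 with Prmt6 shRNA2, against 11.10 and 10.70 with GFP shRNA. The groups did not overlap, and the difference was -0.87 ± 0.24 (95% interval -1.47 to -0.27), or 1.83-fold lower (adjusted p = 0.178). Without Prmt6 shRNA2 replicate 1, the difference was -1.04 and passed the test (adjusted p = 0.0447), in a fit that called 4.31% of all genes lower.

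Cdk1, the kinase that cyclin B1 activates, stood at 10.61 and 10.88 with Prmt6 shRNA1 and at 10.40 and 10.65 with Prmt6 shRNA2, against 11.62 and 10.96 with GFP shRNA. Its arrays did not overlap, although the lower control array was close to 1 Prmt6 shRNA1 array, and the difference was -0.65 ± 0.24 (adjusted p = 0.288). Without GFP shRNA replicate 1 it was -0.32, and without the other control array -0.98. Aurka, the Aurora kinase of centrosomes and spindle poles, stood at 10.75 and 10.98 with Prmt6 shRNA1 and at 10.78 and 11.10 with Prmt6 shRNA2, against 11.73 and 11.39 with GFP shRNA. Its arrays did not overlap either, and the difference was -0.66 ± 0.19, or 1.58-fold lower (adjusted p = 0.194).

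Cdc25c, the phosphatase that activates Cdk1, had a difference of -0.54 ± 0.16 with no overlap of arrays (adjusted p = 0.191), although it was detected on only 1 array of each Prmt6 hairpin. Plk1, the Polo kinase, stood at 7.64 and 7.27 with Prmt6 shRNA1 and at 7.34 and 7.63 with Prmt6 shRNA2, against 7.54 and 7.89 with GFP shRNA. Its arrays overlapped. Plk1 was detected on 1 Prmt6 shRNA1 array, no Prmt6 shRNA2 array and both control arrays. No fold is given, since its limit with Prmt6 shRNA2 alone is under 1, and Plk1 did not pass the test (adjusted p = 0.638).

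Among the 8 tested genes of the spindle and chromosomes, the spindle checkpoint protein Bub1b (BubR1) and the topoisomerase Top2a had the smallest p-values of all members. Bub1b stood at 8.42 and 8.77 with Prmt6 shRNA1 and at 8.04 and 8.10 with Prmt6 shRNA2, against 9.20 and 8.96 with GFP shRNA. Top2a stood at 10.91 and 10.59 with Prmt6 shRNA1 and at 10.28 and 10.01 with Prmt6 shRNA2, against 11.21 and 11.07 with GFP shRNA. For both genes the Prmt6 shRNA2 arrays were the lowest, the Prmt6 shRNA1 arrays lay between, and no groups overlapped. The difference was -0.75 ± 0.18 for Bub1b (95% interval -1.18 to -0.32), or 1.68-fold lower (adjusted p = 0.121). It was -0.69 ± 0.18 for Top2a, or 1.62-fold lower (adjusted p = 0.146).

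Mad2l1, the checkpoint protein that restrains Cdc20, stood at 8.91 and 9.56 with Prmt6 shRNA1 and at 9.10 and 8.63 with Prmt6 shRNA2, against 9.96 and 9.56 with GFP shRNA. Prmt6 shRNA1 replicate 2 was level with GFP shRNA replicate 2, and the difference was -0.71 ± 0.27 (adjusted p = 0.3). Aurkb, the Aurora kinase of the chromosomal passenger complex, had -0.63 ± 0.18 with no overlap (adjusted p = 0.197), and Birc5 (survivin), a partner in that complex, had -0.39 ± 0.16 with no overlap (adjusted p = 0.351). Aurkb and Birc5 thus had the same direction, but neither passed the test.

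Cenpa, the histone variant of centromeres, stood at 12.98 and 13.26 with Prmt6 shRNA1 and at 13.20 and 13.33 with Prmt6 shRNA2, against 13.59 and 13.57 with GFP shRNA. Its arrays did not overlap, and the difference was -0.39 ± 0.16 (adjusted p = 0.344). The kinetochore motor Cenpe had the same difference, -0.39 ± 0.16 (adjusted p = 0.349). Cdc20, the activator of the anaphase-promoting complex, stood at 11.84 and 11.65 with Prmt6 shRNA1 and at 11.73 and 11.91 with Prmt6 shRNA2, against 11.999 and 11.82 with GFP shRNA. The groups overlapped, and Cdc20 had the smallest difference of the mitosis genes, -0.13 ± 0.16 (adjusted p = 0.77). Its further probes, also detected on all 6 arrays, gave -0.29 ± 0.18 and -0.26 ± 0.22.

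The cyclins and regulators were the most mixed of the groups, with 5 of 6 tested members below 0 and a median of -0.27. Ccne1, cyclin E1, which drives entry into S phase, stood at 9.44 and 9.16 with Prmt6 shRNA1 and at 9.11 and 9.35 with Prmt6 shRNA2, against 9.80 and 9.90 with GFP shRNA. It was the only member of this group with no overlap, at -0.59 ± 0.17, or 1.50-fold lower (adjusted p = 0.193). Mki67, the proliferation marker Ki-67, stood at 9.12 and 9.11 with Prmt6 shRNA1 and at 8.43 and 8.58 with Prmt6 shRNA2, against 9.33 and 9.01 with GFP shRNA. Its Prmt6 shRNA1 arrays lay between the control arrays and its Prmt6 shRNA2 arrays lay below both, which gave -0.36 ± 0.16 (adjusted p = 0.398).

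Ccnd1, cyclin D1 of the G1 phase, stood at 9.56 and 9.28 with Prmt6 shRNA1 and at 9.58 and 9.99 with Prmt6 shRNA2, against 9.85 and 9.91 with GFP shRNA. Its highest array had Prmt6 shRNA2, and the difference was -0.28 ± 0.19 (adjusted p = 0.565). Foxm1, a transcription factor of G2 and M genes, stood at 8.17 and 8.37 with Prmt6 shRNA1 and at 7.78 and 8.18 with Prmt6 shRNA2, against 8.10 and 7.99 with GFP shRNA. Foxm1 alone lay above 0, at 0.08 ± 0.18 (adjusted p = 0.885), and its sign turned to -0.020 without Prmt6 shRNA2 replicate 2. The regulators Mybl2, part of the complex that activates G2 and M genes, and E2f1, the activator of replication genes, had -0.26 ± 0.16 and -0.16 ± 0.17 (adjusted p = 0.515 and 0.728).

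Among the tested members, mitosis genes lay lower than replication genes. In the longer lists of other genes described below, the medians were closer, at -0.34 for mitosis and -0.21 for replication. All 12 tested replication genes and all 13 tested mitosis genes were below 0, with medians of -0.63 for mitosis and -0.22 for replication, a gap of -0.41 log2 units. The arrays did not overlap for 10 of 13 mitosis genes (76.9%) and for 5 of 12 replication genes (41.7%), against 8.79% of all genes as lower. At an unadjusted p under 0.05, 8 mitosis and 4 replication genes were lower, against 3.87% of all genes, in a count that was 0 over all members without GFP shRNA replicate 1. The order held on every Prmt6 shRNA array. As deviations from the GFP shRNA mean, the mitosis medians were -0.55 and -0.40 with Prmt6 shRNA1, then -0.60 and -0.64 with Prmt6 shRNA2, against 0.09 and -0.09 on the GFP shRNA arrays. The replication medians were -0.19 and -0.23 with Prmt6 shRNA1, then -0.35 and -0.30 with Prmt6 shRNA2, against 0.09 and -0.09 on the GFP shRNA arrays. The gap between the classes is a description without a p-value, since the genes were chosen with results of these arrays known. Over the members detected on all 6 arrays, the medians were -0.65 for mitosis and -0.20 for replication. The gap was -0.23 with no filter and -0.26 when the passing probes of a gene were averaged, where the replication median was -0.36. Those averages include probes detected on no Prmt6 shRNA2 array, such as the dimmer Rrm2 probe. Without GFP shRNA replicate 2 the replication median was -0.33 and the gap -0.43.

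**Figure D2:**
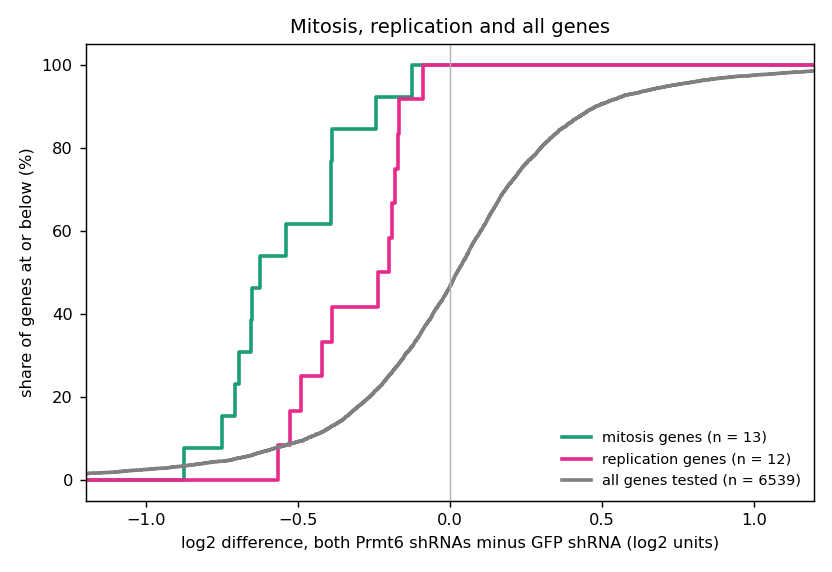
Share of genes at or below each log2 difference of both Prmt6 shRNAs minus GFP shRNA, for 13 mitosis genes, 12 replication genes and all 6539 genes tested. The mitosis curve lies left of the replication curve (medians -0.63 and -0.22), and both lie left of the curve of all genes (median 0.02).

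The hairpins gave the same direction for nearly all members. Against GFP shRNA, 31 of 31 members were below 0 with Prmt6 shRNA2 (42.1% of all genes) and 30 of 31 with Prmt6 shRNA1 (52.1% of all genes). Both comparisons use the same GFP shRNA arrays. The median was -0.43 with Prmt6 shRNA2 and -0.36 with Prmt6 shRNA1. At an unadjusted p under 0.05, 13 members were lower with Prmt6 shRNA2 (5.29% of all genes) and 7 with Prmt6 shRNA1 (3.5% of all genes). No member was called after adjustment with either hairpin. With Prmt6 shRNA2 1.04% of all genes were called, 0.107% as lower, and with Prmt6 shRNA1 1.32% were called, 0.0459% as lower. Both arrays lay below both control arrays for 23 members with Prmt6 shRNA2 (74.2%, against 20.2% of all genes) and for 19 with Prmt6 shRNA1 (61.3%, against 19.4%). The mitosis median was -0.62 with Prmt6 shRNA2 and -0.46 with Prmt6 shRNA1, and the replication median was -0.33 and -0.15.

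**Figure D3:**
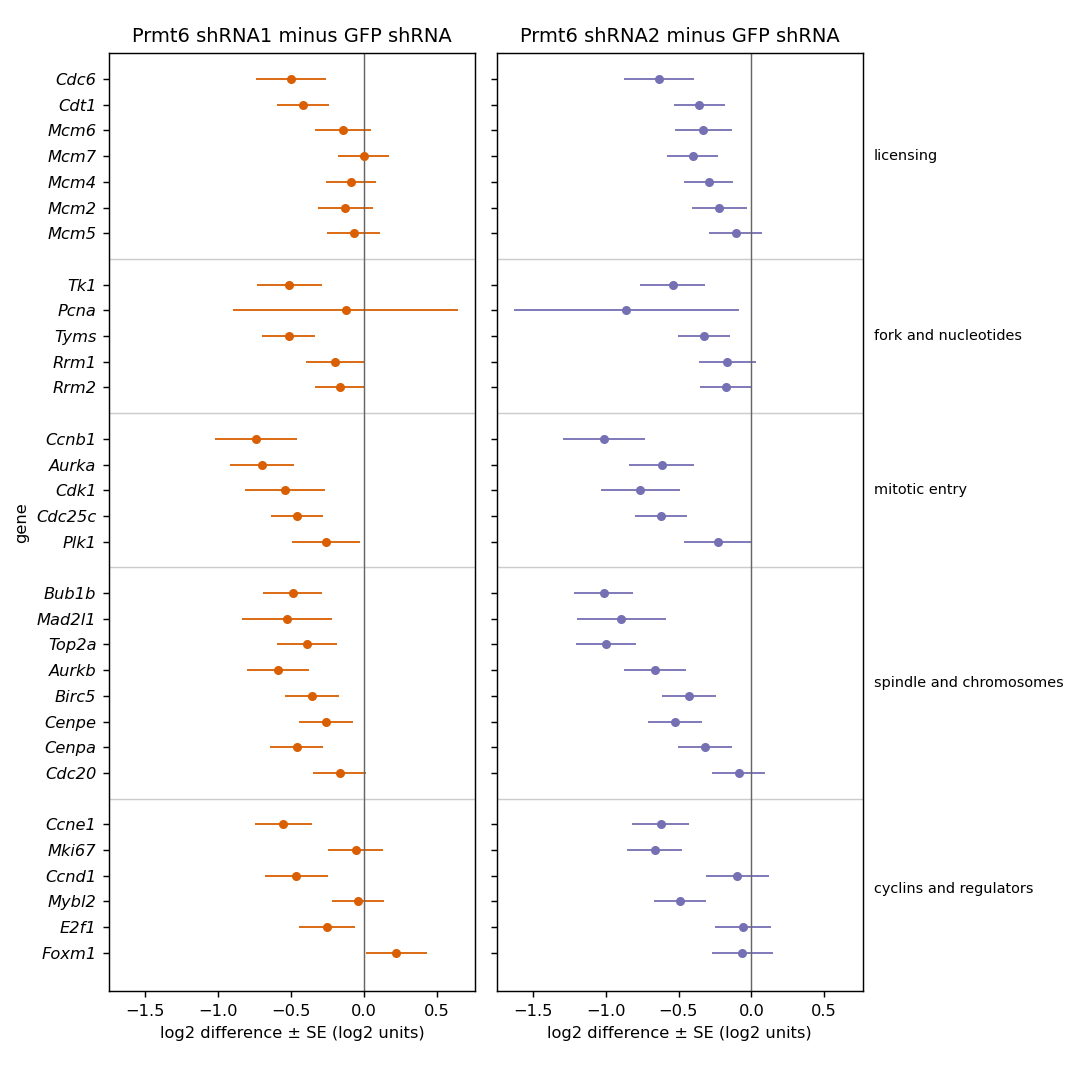
Log2 difference of each tested member from GFP shRNA with Prmt6 shRNA1 (left) and Prmt6 shRNA2 (right), with limma standard errors, in the same row order. On the brightest probe of each gene, Bub1b, Top2a, Mki67, Mybl2 and Mcm7 lie further left with Prmt6 shRNA2. Pcna has the widest bar in both panels. Pcna and Plk1 were detected on no Prmt6 shRNA2 array, so their points there rest on signal at background.

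No member passed the test when the hairpins were set directly against each other. Prmt6 shRNA2 minus Prmt6 shRNA1 had a median of -0.09 over the members, with 22 of 31 below 0 (43.3% of all genes). At an unadjusted p under 0.05, Mki67 (-0.61 ± 0.19), Top2a (-0.60 ± 0.20), Bub1b (-0.53 ± 0.20) and Mybl2 (-0.45 ± 0.18) were lower with Prmt6 shRNA2, a share of 12.9% against 5.44% of all genes. None passed after adjustment (limma adjusted p from 0.339 to 0.419), where 0.398% of all genes were called, 0.306% as lower. Both Prmt6 shRNA2 arrays lay below both Prmt6 shRNA1 arrays for 8 members, against 17.9% of all genes. Mcm7 had a like difference, -0.40 ± 0.18 (adjusted p = 0.438). Against GFP shRNA, the brightest Mcm7 probe was at -0.0011 ± 0.18 with Prmt6 shRNA1 and at -0.40 ± 0.18 with Prmt6 shRNA2. A dimmer Mcm7 probe, detected on all 6 arrays, was at -0.40 ± 0.27 and -0.54 ± 0.27, and at -0.15 ± 0.27 between the hairpins. A dimmer Mybl2 probe, also detected on all 6 arrays, was at 0.057 ± 0.24 between the hairpins. The hairpin difference was thus smaller on the dimmer Mcm7 probe and absent on the dimmer Mybl2 probe.

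With Prmt6 shRNA2 alone, Bub1b had -1.01 ± 0.20 (adjusted p = 0.1), Top2a -0.995 ± 0.20 (adjusted p = 0.106) and Ccnb1 -1.01 ± 0.28 (adjusted p = 0.174), each about as far below GFP shRNA. Some of these passed under other settings. Among genes detected on all 6 arrays, 5 members were called lower with Prmt6 shRNA2, against 1.78% of genes: Bub1b (adjusted p = 0.00629), Top2a (0.00692), Ccnb1 (0.0161), Mad2l1 (0.0379) and Mki67 (0.0446). On the larger series of probes alone, Bub1b (0.044) and Top2a (0.0458) were called, against 0.552% of genes. With the authors' processed values, Top2a alone was called, at -0.93 (adjusted p = 0.0481), against 0.245% of genes. Without Prmt6 shRNA2 replicate 1, Ccnb1 alone was called, at -1.35 (adjusted p = 0.0422), against 5.75% of genes. With Prmt6 shRNA1, Bub1b and Top2a had -0.49 ± 0.20 and -0.39 ± 0.20 (adjusted p = 0.443 and 0.573).

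Different probes of a gene mostly lay on the same side. The 36 members had 72 probes, of which 46 passed the filter and 40 were detected on at least 1 array of every group. Of these 40, 38 were below 0 with both hairpins. Probes were adjusted over all 9138 that passed, and no member probe was called. In 8 members more than 1 probe was detected in every group. The dimmer Rrm2 probe stood at 7.71 and 7.27 with Prmt6 shRNA1 and at 7.35 and 7.39 with Prmt6 shRNA2, against 8.26 and 8.03 with GFP shRNA. It was detected on both control arrays, 1 Prmt6 shRNA1 array and no Prmt6 shRNA2 array, so no difference is given. A further Top2a probe was detected on 1 Prmt6 shRNA1 array and 1 control array only and is treated in the same way. The dimmer probes of Mcm7, Mybl2 and Tyms lay lower than the brighter ones, at -0.47 ± 0.23, -0.48 ± 0.21 and -0.58 ± 0.18. So did those of Tk1 (-0.61 ± 0.17) and Cdc20 (-0.29 ± 0.18 and -0.26 ± 0.22). The further probes of Ccnb1 (-0.73 ± 0.25) and Birc5 (-0.28 ± 0.18 and -0.39 ± 0.16) did not lie lower than the brightest. Ccnd1 was the member whose probes differed in sign, with -0.28, -0.26 and 0.01 over the 3 probes detected in every group.

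**Figure D4:**
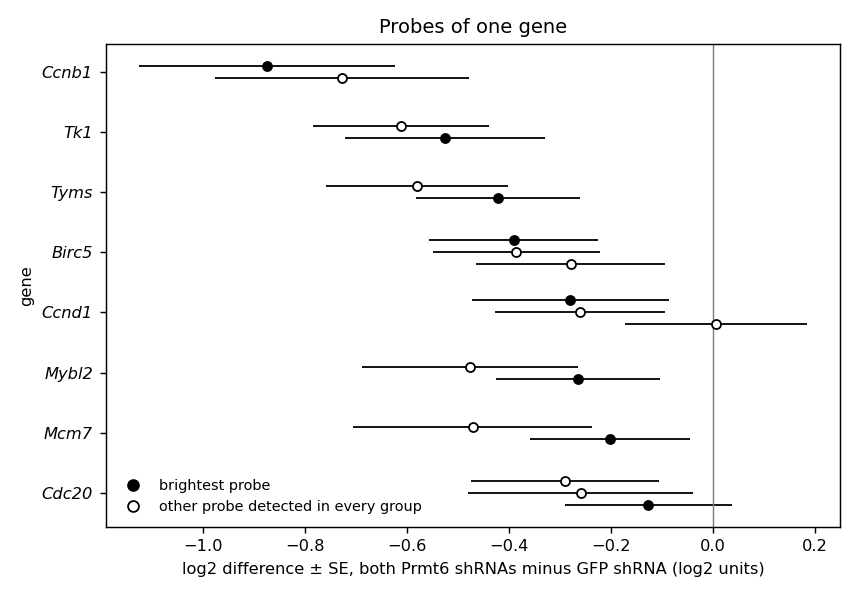
Log2 difference of both Prmt6 shRNAs minus GFP shRNA, with limma standard errors, for each probe detected on at least 1 array of every group, in the 8 members with more than 1 such probe. Filled points are the brightest probe of a gene and open points its other probes. All points but 1 Ccnd1 probe (0.01) lie below 0.

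Other genes of the same pathways also lay mostly below control. They were listed by function with earlier results of these arrays known, so their shares are descriptions only. Of 54 other replication genes, 44 were tested: 37 were below 0, the median was -0.21, none was called, and 3 were lower and 1 higher at an unadjusted p under 0.05 (3.87% and 10.7% of all genes). The lowest was Gins2, a subunit of the replicative helicase, at -1.23 ± 0.76 (adjusted p = 0.538). Gins2 stood at 10.12 and 9.74 with Prmt6 shRNA1 and at 9.76 and 6.87 with Prmt6 shRNA2, against 10.12 and 10.57 with GFP shRNA, with 1 Prmt6 shRNA2 array far below the other 5. The highest was Pole3, an accessory subunit of DNA polymerase epsilon, at 0.61 ± 0.22 (adjusted p = 0.278).

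Of 69 other mitosis genes, 51 were tested: 43 were below 0, the median was -0.34, none was called, and 10 were lower and 0 higher at an unadjusted p under 0.05. The lowest fitted value was that of the kinetochore protein Cenpf (limma adjusted p = 0.185). It was detected on 1 Prmt6 shRNA1 array, no Prmt6 shRNA2 array and 1 control array. No fold is given, since its limit with Prmt6 shRNA2 alone is under 1. The highest was Zwint, another kinetochore protein, at 0.36 ± 0.16 (adjusted p = 0.383). An E2F word stood in 56.8% of 44 promoters of the other replication genes and 29.0% of 62 of the other mitosis genes. A CHR word stood in 15.9% and 62.9% of the same promoters.

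Of 31 genes that control the cycle (inhibitors, D cyclins, E2F and Rb proteins, the DREAM complex and others), 18 were tested and 8 were below 0, with a median of 0.0042. A single gene in this list was called, in each comparison with GFP shRNA: Cdkn1a, which encodes p21, an inhibitor of cyclin-dependent kinases. Cdkn1a stood at 12.11 and 11.97 with Prmt6 shRNA1 and at 12.18 and 12.36 with Prmt6 shRNA2, against 10.62 and 10.86 with GFP shRNA. All 4 Prmt6 shRNA arrays lay more than 1 log2 unit above both control arrays. It rose by 1.41 ± 0.16, or 2.66-fold, with both hairpins (limma adjusted p = 0.0274), by 1.30 ± 0.19 with Prmt6 shRNA1 (adjusted p = 0.0426) and by 1.53 ± 0.19 with Prmt6 shRNA2 (adjusted p = 0.0438). This call was lost with no filter (adjusted p = 0.06) and in 5 of the 6 fits that leave out 1 array (adjusted p from 0.078 to 0.242), with differences of 1.29 to 1.53. It was also lost with the replicate number as a block (adjusted p = 0.137). The labels do not say whether the numbers pair the arrays. The gene with the lowest fitted value in this list, the activating factor E2f2, was detected on 1 Prmt6 shRNA1 array, no Prmt6 shRNA2 array and 1 control array. Its lower limit is under 1, so no fold is given (adjusted p = 0.375).

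The remaining 6 members could not be compared. No probe was found under the name of Mcm3. Geminin (GMNN on the array), cyclin B2 (CCNB2), the checkpoint kinase Bub1 (BUB1), the spindle motor Kif11 (KIF11) and cyclin A2 (CCNA2) had probes that were not detected on any array. The probe for Gmnn had linear intensities of 12.2 and 52.1 with Prmt6 shRNA1, then 24.0 and -26.4 with Prmt6 shRNA2, against 76.3 and 13.9 with GFP shRNA. The single Ccnb2 and Ccna2 probes lay between -41.6 and 20.5. Values of this size are at the background of the arrays and show no level for these genes in any group.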

How the data were processed

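Transcripts of 3 hairpin groups with 2 arrays each were measured on Illumina mouse bead arrays; the array build is not given in the sources used here. The authors deposited a table of mean bead intensity per probe on a linear scale, background-subtracted but not normalized between arrays, with a detection score of 0 to 1 beside it per the file headers, read as 1 minus the detection p-value. The authors also deposited processed log2 values (lumi, per the submitters' processing notes), used only as an alternative.

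Intensities were corrected and quantile-normalized with neqc (offset 16) in limma 3.58.1 under R 4.3.3. A probe passed with a detection p under 0.01 on 2 or more of the 6 arrays, and the brightest such probe stood for its gene (names from RefSeq, GRCm38.p6; 34387 of 46643 probes matched). The 3 group means were estimated in 1 limma model of the 6 arrays (residual degrees of freedom 3, prior 2.81). P-values are two-sided, adjusted by Benjamini and Hochberg over all 6539 genes and called under 0.05. The smallest p that exact permutation allows is 0.133 for 4 arrays against 2 and 0.333 for 2 against 2. A gene detected on no array of a group has a fold given as a lower limit, from the lowest detected signal of each array. No fold is given where that limit, or the limit for that hairpin alone, is under 1. The limit allows for undetected signal and not for the spread between arrays. Only the limma fit was tested on simulated data, not the background correction, normalization, filter, probe choice or fold limits.

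Members and lists were chosen with earlier results of these data known, so no list has a p-value. Array values are given for the 3 lowest, the highest and the brightest member of each role and for members whose probes differ in sign. Of the other pathway lists, called genes and the lowest and highest are named. Aurkb, Birc5, Cdc25c, Cenpe, E2f1, Mybl2, Rrm1, Mcm2, Mcm4 and Mcm7 are named besides, chosen after their values were seen. Alternatives changed the background correction, normalization, filter, probe choice, probe series, array weights and blocking, left out each array, or used the processed values.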

Additional observations from a re-analysis of the deposited data

How the results depend on the processing

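The direction held widely: 25 to 34 members were below 0 under every alternative (25 of 26 tested with detection on all 6 arrays, 34 of 36 with no filter), and the mitosis median stayed below the replication median in each, with a gap of -0.45 to -0.23. The cause of the changes below was not tested. The genes called with both hairpins (109) were 190 with median centring, 195 with the authors' processed values, 26 with no filter, 302 with detection on all 6 arrays, 254 on first-series probes and 188 with array weights. With Prmt6 shRNA1 (86) they were 37 with no filter, 236 with detection on all arrays and 155 on first-series probes. With Prmt6 shRNA2 (68) they were 139 with centring, 143 with the processed values, 0 with no filter, 351 with detection on all arrays and 192 on first-series probes. Between the hairpins (26) they were 40, 7, 92 and 77 with processed values, no filter, detection on all arrays and first-series probes, and 3 with array weights. Members called, 0 in the main test, were 6 with both hairpins and 5 with Prmt6 shRNA2 when detection on all arrays was required, and with Prmt6 shRNA2 also 2 on first-series probes and 1 with processed values. The replication median was -0.36 with probes averaged, and the mitosis median was -0.47 with no filter.

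Replicate 1 minus replicate 2 did not run alike in the groups. Across genes it correlated with -0.65 between Prmt6 shRNA1 and GFP shRNA, 0.12 between Prmt6 shRNA2 and GFP shRNA, and -0.36 between the hairpins. The labels do not say whether the numbers pair the arrays, and these correlations cannot decide it. A replicate block gave 0 genes called with both hairpins, 6 with Prmt6 shRNA1, 0 with Prmt6 shRNA2 and 0 between hairpins, and 7 members lower at an unadjusted p under 0.05 instead of 13. Cdkn1a had an adjusted p of 0.137 with the replicate block.

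Leaving out 1 array makes the lone array of its group be taken to vary like the others. The genes called were then 0 to 464 with both hairpins, 5 to 57 with Prmt6 shRNA1, 0 to 501 with Prmt6 shRNA2 and 0 to 382 between hairpins, each highest count being without Prmt6 shRNA2 replicate 1 (for Prmt6 shRNA1 also without Prmt6 shRNA2 replicate 2). Without Prmt6 shRNA2 replicate 1, Ccnb1 was at -1.04 with both hairpins and at -1.35 with Prmt6 shRNA2. Members below 0 were 29 to 31, those with separate arrays 17 to 24, and those lower at an unadjusted p under 0.05 were 0 to 11. The replication median was -0.33 to -0.16, the mitosis median -0.76 to -0.49 and the gap -0.43 to -0.30. Pcna ranged from -1.4997 to 0.52, turning without GFP shRNA replicate 1, and Foxm1 from -0.020 to 0.18, turning without Prmt6 shRNA2 replicate 2. Depth of signal limits Pcna, Plk1, Cdc6, Cdc25c and Rrm1, which were not detected on every array.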
